A study of Rattus norvegicus with 12 samples.

Results

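Synaptic vesicle endocytosis was examined in the hippocampus of blast-exposed rats through 10 genes, of 17494 in the count table: Amph, Bin1, Dnm1, Dnm2, Dnm3, Synj1, Sh3gl2, Itsn1, Snap91 and Picalm. All 10 were found by gene symbol, and all 10 were among the 12325 genes that passed the filter on low counts. Amph was chosen by its difference between boldine-fed and control rats in these same libraries, so that difference is described here and not tested. The other 9 were named for their place in the pathway, with earlier results of these data known.

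After a synaptic vesicle has fused with the presynaptic membrane, its membrane and proteins are retrieved by endocytosis. Adaptors such as AP180 and CALM recruit clathrin to a patch of membrane, BAR-domain proteins such as amphiphysin and endophilin curve the neck of the forming vesicle and bring in dynamin, and dynamin cuts the neck. Synaptojanin then removes phosphates from membrane lipids so that the clathrin coat can be shed.

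All 12 animals were male Long Evans rats of wild-type genotype, exposed to 3 blasts at 10 weeks of age. From week 2 after the blasts, 6 rats (blast-boldine) ate chow with boldine, an alkaloid of the boldo tree, at 500 mg/kg, and 6 rats (blast-control) ate the same chow without it, until sacrifice 29 weeks after the blasts. Rats without blast exposure were not analysed here, so every comparison is between blast-exposed animals. Stranded, ribosomal RNA-depleted total RNA was sequenced with 1 library per rat.

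GEO's labels give brain as the tissue, and the methods of the study give hippocampus. Markers of dentate granule and pyramidal neurons (Prox1, Wfs1 and Fibcd1) summed to between 642 and 947 CPM (normalized counts, relative to TMM-adjusted library size) in the 11 rats other than rat 6. None of the neuronal or glial marker lists had a gene at 0 in all 11 of these rats. Totals of counts lay between 10148474 and 40850106, except for blast-control rat 6 with 74008. In rat 6 a single count was worth 15.8 CPM, so results are given with and without it. The suffixes of the library names fit 2 sequencing sheets of 6 libraries. It was assumed that each sheet used each suffix once and that rat numbers rose with the suffix, which left 4 ways to divide the rats. The suffixes alone allow more. Rats 1, 7, 9, 20, 32 and 35 were taken as the first sheet and rats 4, 5, 6, 12, 17 and 19 as the second. This division was picked because it explained more of the leading principal component of expression (95.1%) than the alternatives did. Each sheet held 3 rats of each treatment.

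Promoter sequences of Amph, the gene whose levels separated the treatments, and of Sh3gl2, the only one of the genes with a cAMP response element in this window, are shown for context. They run from 250 bases before to 50 bases after the RefSeq start in GRCr8, a later assembly than the mRatBN7.2 used for the counts. They lie at chr17:50678452-50678751 on the minus strand (Amph) and chr5:104699020-104699319 on the plus strand (Sh3gl2), and capitals mark motif matches on either strand.
Amph: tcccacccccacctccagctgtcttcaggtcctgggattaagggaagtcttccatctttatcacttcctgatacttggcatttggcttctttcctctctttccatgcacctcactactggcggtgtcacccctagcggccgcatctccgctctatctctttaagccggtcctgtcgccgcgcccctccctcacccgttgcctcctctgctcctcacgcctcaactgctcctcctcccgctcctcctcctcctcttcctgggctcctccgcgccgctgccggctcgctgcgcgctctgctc
Sh3gl2: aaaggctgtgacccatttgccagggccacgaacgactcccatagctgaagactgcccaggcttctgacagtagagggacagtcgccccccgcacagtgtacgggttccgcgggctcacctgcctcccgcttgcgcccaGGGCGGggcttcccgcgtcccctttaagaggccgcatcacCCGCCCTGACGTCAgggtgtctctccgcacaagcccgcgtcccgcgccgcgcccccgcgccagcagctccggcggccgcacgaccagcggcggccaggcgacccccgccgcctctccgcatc
Promoters were matched for 9 of the 10 genes (not Snap91) and searched on both strands for the cAMP response element TGACGTCA, the GC box GGGCGG and the EGR site GCGTGGGCG. The cAMP response element occurred in Sh3gl2 alone, where it directly follows a GC box read on the opposite strand, and in 1.83% of all 33469 promoters. A GC box occurred in 6 of the 9 promoters (Bin1, Dnm2, Dnm3, Itsn1, Picalm and Sh3gl2) and in 33.1% of all promoters. The EGR site occurred in none of the 9 and in 0.544% of all promoters. The Amph window held no match to the 3 motifs, and its GC content was 61.7%, against 71.3% for Sh3gl2. Over the 9 windows GC content ran from 58% (Dnm2) to 77.3% (Picalm), all above the median of 51.7% over all promoters. The share of promoters with a GC box was not compared at like GC content.

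Amph encodes amphiphysin, the neuronal BAR-domain protein that links clathrin and AP-2 to dynamin. Its gene lies at chr17:45740475-45982807 (mRatBN7.2, minus strand), with 2041 bases of exon counted. In blast-boldine rats, Amph measured 270.6 CPM (rat 12), 263 (rat 17), 282 (rat 19), 258 (rat 20), 266 (rat 32) and 255 (rat 35). In blast-controls, it measured 234 CPM (rat 1), 239 (rat 4), 238 (rat 5), 253 (rat 6), 220.2 (rat 7) and 252 (rat 9). Every blast-boldine value lay above every control value, although the gap between rat 35 and rats 6 and 9 was small. The rat 6 value rested on 16 counts, with a 95% Poisson interval of 145 to 412 CPM that spans the whole range of both groups; intervals of this kind cover counting error only.

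With boldine, Amph averaged 266 CPM ± 9.75 (SD, n = 6), and without it 239 ± 12.3 (n = 6), a ratio of 1.11. Without rat 6, the control mean was 237 ± 11.4 (n = 5) and the ratio 1.12. The log2 fold change in edgeR was 0.16 ± 0.10 (SE) with all rats, 0.16 ± 0.08 without rat 6 and 0.16 ± 0.07 with the sheet as a covariate. Within the first sheet, the blast-boldine rats ranged from 255 to 266 CPM and the controls from 220.2 to 252. Within the second sheet, the ranges were 263 to 282 and 238 to 253 CPM. On the log2 CPM scale, Amph was higher in blast-boldine rats by 0.14 on the first sheet and 0.16 on the second, or 0.19 there without rat 6. Because Amph was chosen for values above every control, a higher level on both sheets was fixed in advance and lends no support. The direction turned in 1 of the 23 alternative settings, a gene-by-gene correction for exon length, which gave -0.45 with rat 6 and 0.16 without it.

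For scale, all 6 blast-boldine rats lay above all 6 controls for 9 genes, Amph included, which is 0.073% of the genes tested, and below all controls for 1 gene (0.00811%). With rat 6 left out of the controls, there were 9 genes above (0.073%) and 9 below (0.073%). Because Amph was chosen for this pattern, nothing is read from its place among them. In edgeR, 0 genes (0%) passed an adjusted p of 0.05 for boldine, and 132 (1.07%) had an unadjusted p under 0.05, against 85 with DESeq2 and 115 with limma-voom. None of the other 9 endocytosis genes was among those 132. In bulk tissue, fewer cells of a type and less RNA per cell cannot be told apart.

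**Figure D1:**
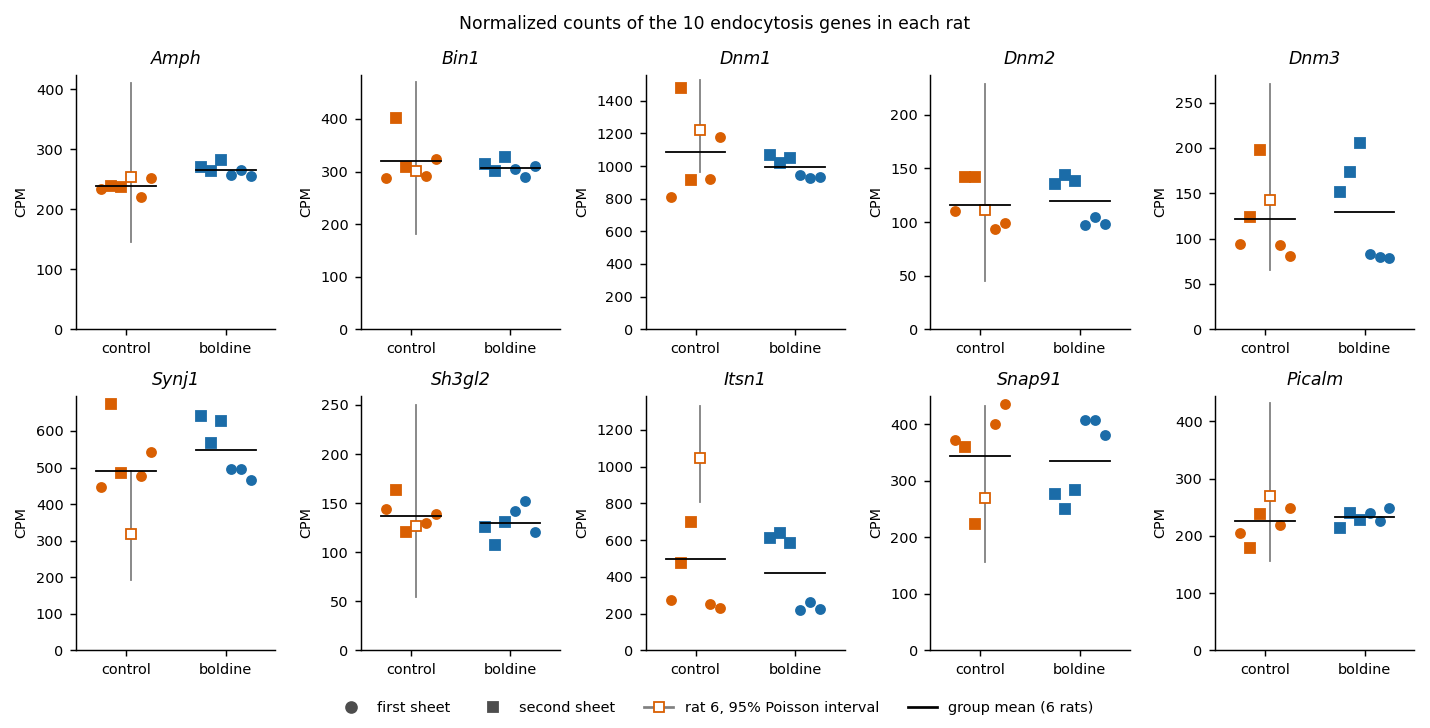
CPM of each of the 10 genes in each rat, by treatment (orange, blast-control; blue, blast-boldine) and sheet (circles, first; squares, second); black lines are means of 6 rats, and the open square is rat 6 with its 95% Poisson interval. The blast-boldine rats lie above the controls for Amph, at 255 to 282 against 220.2 to 253 CPM, and the groups overlap for the other 9 genes.

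Bin1, at chr18:24009804-24067264, encodes the more widely expressed relative of amphiphysin. It ranged from 289 to 327 CPM in blast-boldine rats, with a median of 308, and from 288 to 402 in blast-controls, with a median of 305. The groups overlapped, and the highest value by far was that of blast-control rat 4. The log2 fold change was -0.06 ± 0.12 (edgeR, adjusted p = 1.0). Per kilobase of exon, Amph made up 50.3% ± 0.962 (SD, n = 6) of the Amph and Bin1 total in blast-boldine rats and 46.4% ± 3.08 (n = 5) in blast-controls without rat 6, a difference that includes the Amph values described above.

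Sh3gl2, at chr5:99653189-99827500, encodes endophilin A1, which binds curved membrane and recruits synaptojanin and dynamin. Its levels ran from 107 to 152 CPM (median 128) with boldine and from 121 to 163 (median 134) without, so the groups overlapped. The log2 fold change was -0.09 ± 0.12 (edgeR, adjusted p = 1.0), in the opposite direction to Amph and smaller than its error. Synj1, at chr11:30193601-30269150, encodes synaptojanin 1, the lipid phosphatase of uncoating. It lay between 466 and 641 CPM (median 532) in blast-boldine rats and between 317 and 673 (median 481) in blast-controls, where both extremes were control rats, 6 and 4. Its log2 fold change was 0.14 ± 0.16 (edgeR, adjusted p = 1.0), and 0.06 without rat 6.

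The dynamins are the GTPases of membrane fission. Dnm1, the neuronal form (chr3:15604791-15648538), ranged from 927 to 1069 CPM (median 983) with boldine and from 809 to 1479 (median 1049) in blast-controls. The blast-boldine rats thus lay inside the range of the controls. Dnm2, the ubiquitous form (chr8:19978450-20059547), ranged from 97.3 to 144 CPM (median 120.4) with boldine and from 93.6 to 142 (median 110.4) without. Dnm3 (chr13:74367726-74838108), found in brain and testis, ranged from 78.9 to 206 CPM (median 118) and from 80.7 to 198 (median 109). In both Dnm2 and Dnm3 each treatment group fell into low and high rats, and, rat 6 apart, these were the rats of the first and the second sheet. The log2 fold changes of Dnm1, Dnm2 and Dnm3 were -0.13 ± 0.15, 0.03 ± 0.16 and 0.11 ± 0.30 (edgeR, adjusted p = 1.0 for each). Without rat 4, its highest library, Dnm1 was at -0.014.

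Itsn1, at chr11:30978794-31152860, encodes intersectin 1, a scaffold that joins early coat proteins to dynamin and to actin regulators. Blast-boldine rats ranged from 220.02 to 640.3 CPM (median 422) and blast-controls from 233 to 1046 (median 374). The highest value, in rat 6, rested on 66 counts, and its 95% Poisson interval of 809 to 1330 CPM lay above every other rat. The log2 fold change was -0.16 ± 0.43 with all rats and 0.13 ± 0.40 without rat 6 (edgeR, adjusted p = 1.0). It was also positive without rat 5, 20 or 35 (0.058, 0.014 and 0.0099) and negative without rat 6 when the sheet was a covariate (-0.035), so its sign was not settled.

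Snap91 and Picalm encode AP180 and CALM, the neuronal and the ubiquitous members of 1 family of clathrin assembly proteins. Snap91 (chr8:87738870-87852367) ranged from 250.03 to 408 CPM (median 332) with boldine and from 223 to 436 (median 365) without. Picalm (chr1:144056761-144136323) ranged from 214 to 249 CPM (median 234) and from 178 to 269 (median 228). The groups overlapped for both. Their log2 fold changes were -0.05 ± 0.19 and 0.06 ± 0.12 (edgeR, adjusted p = 1.0 for each), and -0.10 and 0.09 without rat 6.

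Among the 9 genes other than Amph, 4 had a positive and 5 a negative log2 fold change, with a median of -0.05, beside a median of 0.00 over all genes tested. With the sheet as covariate 7 of the 9 were negative, and under the gene-by-gene length correction with rat 6 all 9 were. Without rat 6, 4 of the 9 were negative, both in the plain fit and under that length correction. With the sheet as covariate and without rat 6, 7 were. Exact two-sided permutation tests of mean log2 CPM, free and within sheets, with and without rat 6, gave no p under 0.05 for any of them; the lowest was p = 0.26 (Picalm, without rat 6). With 12 rats the smallest p these tests can give is 0.00216, or 0.005 within sheets. The errors leave room for differences of the size seen for Amph in most of these genes.

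**Figure D2:**
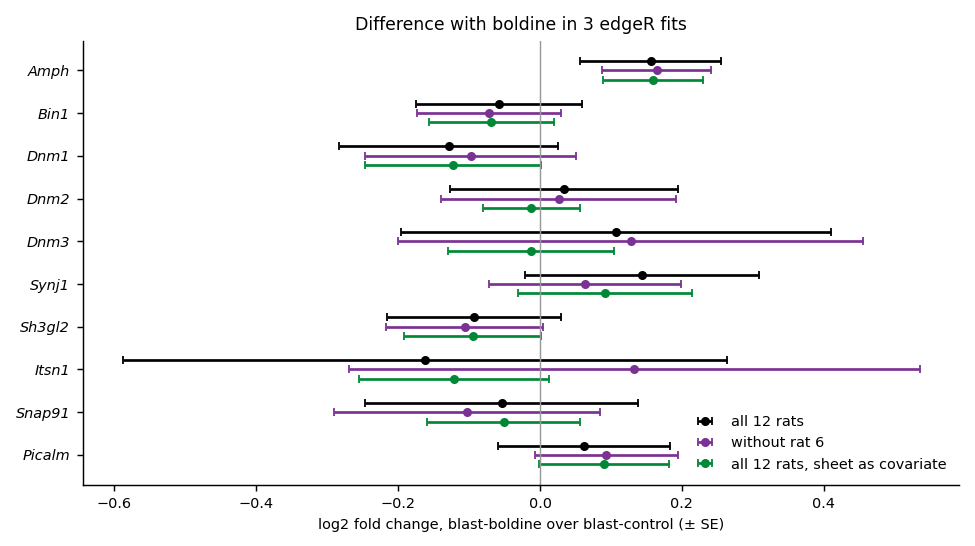
Log2 fold change of blast-boldine over blast-control (horizontal axis, bars ± SE) for the 10 genes in edgeR with all 12 rats (black), without rat 6 (purple) and with the sheet as covariate (green). Amph, chosen by this same difference, is at 0.16 in each fit, with an SE between 0.07 and 0.10. Itsn1 moves from -0.16 to 0.13 when rat 6 is left out.

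Several of the genes had different levels on the 2 sheets. Since the division into sheets was itself chosen with the expression data, these differences are given as descriptions. With treatment in the model, edgeR placed 4 of the 10 genes past an adjusted p of 0.05 between sheets (Itsn1, Dnm3, Dnm2 and Snap91), beside 66.1% of all genes tested. Without rat 6, Synj1 was added, making 5 of 10, beside 68.2% of all genes. The share among the 10 genes was thus no higher than the background.

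Itsn1 was the most divided of the genes. It ranged from 220.02 to 272 CPM (median 242) in the 6 rats of the first sheet and from 477 to 697 (median 610.4) in the 5 deep libraries of the second, with no overlap and a mean 2.47 times as high on the second sheet. The log2 fold change of the first over the second sheet was -1.40 ± 0.14, and 95% of the variance of its log2 CPM lay between sheets. Dnm3 ranged from 78.9 to 94.1 CPM on the first sheet and from 124 to 206 on the second (log2 fold change -1.0 ± 0.12). Dnm2 ranged from 93.6 to 109.9 CPM on the first sheet and from 136 to 144 in the 5 deep libraries of the second. In rat 6, also of the second sheet, Dnm2 was at 111 CPM on 7 counts. The Dnm2 log2 fold change with all 12 rats was -0.48 ± 0.07. Snap91 went the other way, from 372 to 436 CPM on the first sheet and from 223 to 359 on the second (0.52 ± 0.11).

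Amph was among the genes that differed least between sheets, at -0.05 ± 0.07 on the log2 scale, with Picalm at 0.07 and Sh3gl2 at 0.08. The dynamins mixed differently on the sheets, with Dnm1 at -0.23 ± 0.12 for the first over the second. Dnm1 made up 84.2% ± 2.16 (SD, n = 6) of dynamin CPM per kilobase on the first sheet and 78.3% ± 4.47 (n = 5) on the second. Dnm3 made up 7.5% ± 1.15 and 12.3% ± 3.42, and Dnm2 8.31% ± 1.11 and 9.38% ± 1.14. Marker sums also differed between sheets: microglial markers were 2.17 times and oligodendrocyte markers 1.62 times as high on the first sheet, summed neuronal markers 0.83 times and endothelial markers 0.345 times. Single neuronal markers went both ways, with Tubb3 (1.5 on the log2 scale, first over second sheet) and Stmn2 (0.29) higher on the first sheet and Rbfox3 (-1.07), Syn1 (-0.69) and Map2 (-0.59) lower. Their part in the sheet differences of the endocytosis genes was not tested. Genes higher on the first sheet had a median exon length of 1901 bases and those lower 2592.

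Whether the difference with boldine itself varied between sheets was tested by an interaction term, which passed an adjusted p of 0.05 for 0 genes (0%) in edgeR, with 530 at an unadjusted p under 0.05. For the same marker lists, the ratio of the sums of blast-boldine to control rats without rat 6 ran from 0.878 for microglia to 1.38 for choroid plexus, which between sheets was 1.21, and 0 marker genes had an unadjusted p under 0.05 in edgeR. The choroid plexus sum varied from 7.0 to 1058 CPM among blast-boldine rats and from 12.2 to 1058 among these controls, and was 0 in rat 6.

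**Figure D3:**
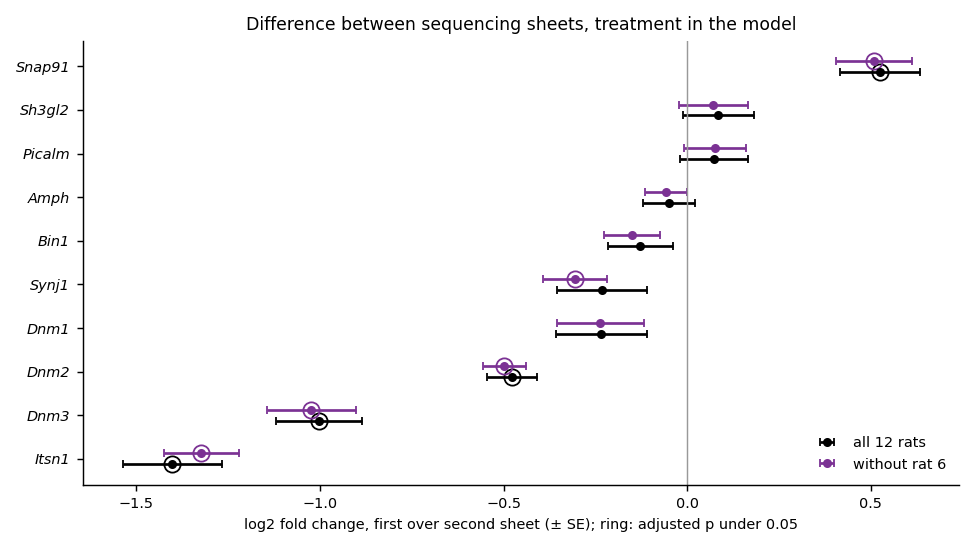
Log2 fold change of the first over the second sheet (horizontal axis, bars ± SE) for the 10 genes, with all 12 rats (black) and without rat 6 (purple); rings mark an edgeR adjusted p under 0.05. Itsn1 (-1.40), Dnm3 (-1.0) and Dnm2 (-0.48) lie to the left, Snap91 (0.52) to the right, and Amph (-0.05) near 0.

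Over the 11 deep libraries, Amph was the steadiest of the 10 genes. It had a coefficient of variation of 7.2%, lower than all but 3.05% of the genes tested, against a median of 23.3% over those genes. Picalm (9.45%), Bin1 (10.2%) and Sh3gl2 (11.9%) were also steady, while Dnm3 reached 40.2% and Itsn1 47.9%. Because Amph was chosen on these same libraries, its low spread is a description and lends its difference no support.

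Levels of different genes were compared as CPM per kilobase of exon. Dnm1 was the most abundant at 325 ± 56.8 (SD, n = 12), followed by Bin1 (131 ± 12.8), Amph (124 ± 8.49), Picalm (112 ± 11.7), Snap91 (99.9 ± 21.6), Sh3gl2 (89.5 ± 10.3), Synj1 (88.4 ± 16.7), Itsn1 (83.2 ± 47.4), Dnm3 (38.6 ± 14.7) and Dnm2 (34.1 ± 5.95). Without rat 6, Synj1 and Sh3gl2 changed places, and Itsn1 was at 73.5 ± 35.2 (n = 11). The Itsn1 mean joins the separate levels of the 2 sheets given above. Neighbours in the order were compared within libraries by permutation of signs, adjusted over 9 pairs. The order came from these same levels, so the pairs were not set in advance. Dnm1 exceeded Bin1 in 12 of 12 libraries, by 1.3 on the log2 scale (permutation test, adjusted p = 0.0022). Itsn1 exceeded Dnm3 in 12 of 12, by 0.99 (permutation test, adjusted p = 0.0022). Amph exceeded Picalm in 11 of 12, by 0.15 (permutation test, adjusted p = 0.0234). That pair includes the blast-boldine values by which Amph was chosen, so nothing is concluded from its p. The other 6 neighbouring pairs did not differ beyond their spread. Among these were Amph and Bin1, with Bin1 higher in 8 of 12 libraries by 0.08 (permutation test, adjusted p = 0.179). The same limit holds for this pair.

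**Figure D4:**
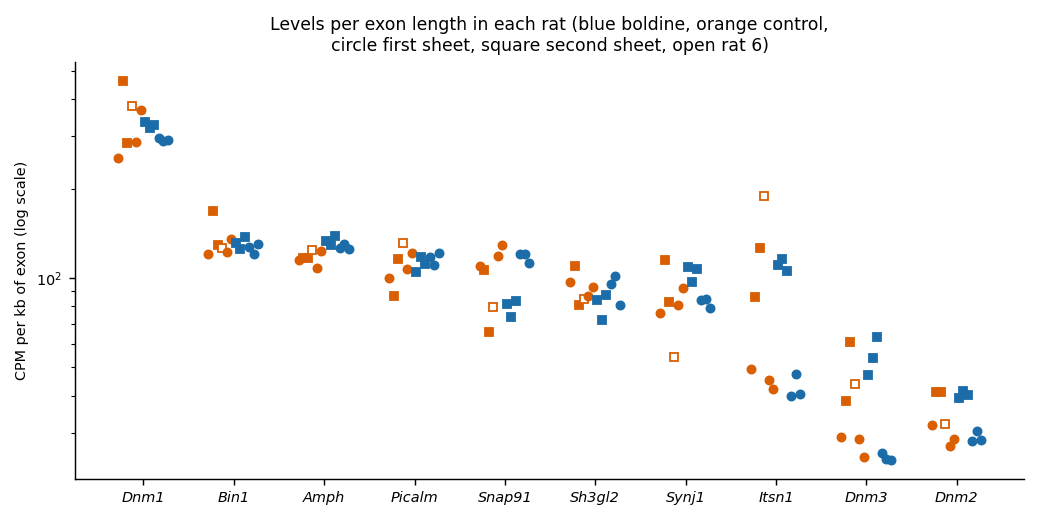
CPM per kilobase of exon (vertical axis, log scale) in each rat for the 10 genes, ordered by mean log2 level (blue, blast-boldine; orange, blast-control; circles, first sheet; squares, second sheet; open symbol, rat 6). Dnm1 stands above the others at a mean of 325, Dnm3 and Dnm2 lie lowest at 38.6 and 34.1, and the 2 sheets separate within Itsn1, Dnm3 and Dnm2.

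The genes whose pattern was most like that of Amph were found from log2 CPM less the mean of the sheet, over the 11 deep libraries, as a description. The largest Pearson r were those of Nxpe3 (0.93), Kiss1r (0.91), Ptpra (0.91), Sfxn4 (0.90) and Gtf2h4 (0.89), and the lowest those of Zfp13 (-0.86) and Sh3bgrl2 (-0.85). All values share the libraries and their scaling, and with this many genes large r occur among the extremes. Of the endocytosis genes, Picalm had r = 0.46, which ranked 1257 of 12325, and Synj1 r = 0.37, while the other 7 lay between -0.16 and 0.04. These r include the treatment difference by which Amph was chosen.

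The pathway beyond the 10 genes was read from 6 lists with 55 genes, of which 53 were tested (not Itsn2 and Reps2). With boldine, 28 had a positive and 25 a negative log2 fold change, with a median of 0.01. An unadjusted p under 0.05 was reached by 0 of the 53, whether in edgeR with all rats, without rat 6 or with the sheet as covariate, or in DESeq2. The shares of all genes in these fits were 1.07%, 1.4%, 3.85% and 0.542%. Of the clathrin coat and AP-2 adaptor, 6 of 11 were positive, the smallest p belonging to Hip1r (-0.16 ± 0.29), an actin-linked coat protein, Cltc (0.10 ± 0.20), the clathrin heavy chain, and Necap1 (0.09 ± 0.18). Without rat 6 these were -0.053, 0.015 and 0.0058. Of the initiation scaffolds, 5 of 8 were positive, with Fcho1 at -0.13 ± 0.17, Fcho2 at 0.11 ± 0.21 and Reps1 at 0.08 ± 0.15, and without rat 6 at -0.090, 0.042 and 0.055.

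Among the other BAR and F-BAR proteins, 7 of 13 were positive, and those with the smallest p were Bin2 (-0.28 ± 0.25), which in brain is a gene of microglia, Bin3 (0.13 ± 0.18) and Snx18 (-0.09 ± 0.13), at -0.22, 0.086 and -0.049 without rat 6. Of the 4 uncoating genes 2 were positive, with Synj2 at -0.24 ± 0.17, Hspa8, the uncoating chaperone Hsc70, at -0.07 ± 0.17, and Gak, its auxilin-like partner, at 0.06 ± 0.14. Without rat 6, Synj2 was at -0.11 and Hspa8 at -0.073, and Gak turned to -0.010. Of the kinases and phosphatases of the cycle, 6 of 9 were positive, Dyrk1a (0.06 ± 0.10), Ppp3cb (0.08 ± 0.14) and Aak1 (0.07 ± 0.18) having the smallest p. Without rat 6, Dyrk1a and Ppp3cb were at 0.043 and 0.10, and Aak1 turned to -0.031.

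Cargo adaptors and vesicle proteins had 2 positive of 8. Syt1, the calcium sensor of vesicle release, had the widest difference of all 53, at -0.83 ± 0.56 with all rats. This value rested on rat 6 with 398 counts, and it was 0.15 ± 0.29 without that library. Vamp2, the vesicle SNARE, went from -0.35 ± 0.31 to -0.06 in the same way, and Ston1, which encodes stonin 1, was at 0.40 ± 0.29 with all rats and 0.38 ± 0.30 without rat 6.

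**Figure D5:**
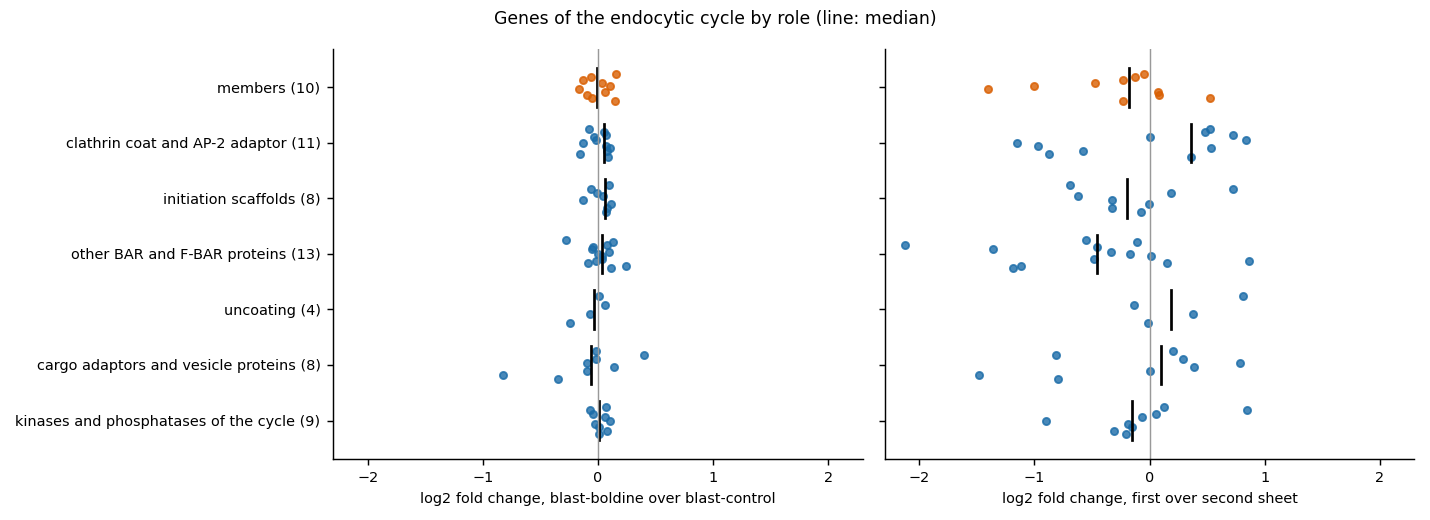
Log2 fold change of each gene by role in the cycle (points; vertical lines are medians of a list), for blast-boldine over blast-control on the left and the first over the second sheet on the right, both from edgeR with 12 rats. The points on the left gather around 0, except for Syt1 at -0.83 and a few others, while those on the right spread from -2.12 to 0.86.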

How the data were processed

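The authors trimmed reads and removed PCR duplicates with HTStream, discarding reads under 50 bases, aligned them to mRatBN7.2 with STAR 2.7.11b, allowing up to 20 alignments per read, and counted them by strand on the exons of RefSeq genes with featureCounts (Subread 2.0.1), with no option in the command they give to count reads with several alignments or on several genes, so that reads shared between similar genes are not in the counts. The deposited values are raw counts of 17494 genes in 12 libraries, of which 1804 had no count, and no other columns were used.

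Genes were tested on these counts with the edgeR 4.0.16 quasi-likelihood test in R 4.3.3, with TMM scaling, filterByExpr at a minimum of 10 counts, two-sided p and Benjamini-Hochberg adjustment over all genes kept. SE is the log2 fold change divided by the square root of F. CPM are TMM-scaled, with a prior count of 2 on the log2 scale. Each library is from a separate rat. A floor of 3 counts, for counting error only, came to 47.5 CPM in rat 6 and at most 0.307 elsewhere.

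Groups came from the sample labels, doses and times from the study's methods, and sheets from the suffixes of library names. Exact permutation tests ran over 924 assignments of rats, 400 within sheets, and 462 and 200 without rat 6. The members, the lists of endocytosis and marker genes and the tests were chosen with earlier results of these data known. Named beside the 10 genes are the 3 of each list with the smallest unadjusted p, the 5 with the largest and the 2 with the lowest r with Amph, and markers by list. Positions are RefSeq on mRatBN7.2, promoters RefSeq on GRCr8. Alternatives were DESeq2 1.42.0, limma-voom (limma 3.58.1), RLE and upper quartile scaling, other filters, the sheet as covariate, corrections for gene length (gene by gene or in 100 bins) and leaving out each rat; the length correction without rat 6 and the permutation within sheets without rat 6 were added after seeing the data. The edgeR fit was tested on simulated counts with no sheet effect and with larger differences than those given here for boldine. Differences as small as that of Amph were not covered. Python 3.11.15 was used for the rest.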

Additional observations from a re-analysis of the deposited data

Results flagged for a closer look

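Of 20 tests for a single outlying rat (10 genes in 2 groups), 1 pointed to a rat, which is about the 1 in 20 that chance gives. Bin1 in blast-control rat 4 was 402 CPM (4072 counts), against 288 to 324 CPM in the other 5 controls. In the same rat Dnm1 (1479 CPM), Synj1 (673) and Sh3gl2 (163) were the highest of all rats, Picalm (178) was the lowest, Amph (239) lay mid-range among the controls, and the summed markers of excitatory neurons (4052 CPM) were the highest of all rats. Their part in the Bin1 value was not tested.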

How the results depend on the processing

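In 23 alternative settings, 0 genes passed the adjusted p for boldine and none of the 9 genes other than Amph that were tested had an unadjusted p under 0.05; all 9 were tested in every setting but that with at least 10 counts in every library, which left 6. The 132 genes at an unadjusted p under 0.05 became 254 with no filter, 5 with at least 10 counts in every library, 474 with the sheet as covariate, 670 with the sheet and without rat 6, and 85 with DESeq2. Leaving out a rat gave 85 to 214 (87 without rat 1, 214 without rat 5, 85 without rat 12 and 85 without rat 17). The cause was not tested, except that the stricter filter left 1729 genes.

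The log2 fold change of Amph ran from 0.13 to 0.18 in 22 settings and was -0.45 under the gene-by-gene length correction with rat 6, where the median of all genes was -0.08; without rat 6 that correction gave 0.16, and in 100 bins 0.17. The same correction with rat 6 turned Picalm (-0.59), Dnm2 (-0.15), Dnm3 (-0.14) and Synj1 (-0.080). It also gave Itsn1 -0.88, Dnm1 -0.85, Bin1 -0.65, Snap91 -0.44 and Sh3gl2 -0.39. With the sheet as covariate Dnm2 and Dnm3 were -0.012 and -0.013, and without rat 6 as well -0.025 and -0.027. Itsn1 was 0.050 in limma-voom and 0.090 under the length correction without rat 6. Leaving out each rat, the ranges were -0.17 to -0.014 (Dnm1, the latter without rat 4), -0.13 to -0.034 (Sh3gl2), 0.063 to 0.25 (Synj1), -0.084 to 0.024 (Bin1), -0.029 to 0.12 (Dnm2), -0.064 to 0.36 (Dnm3), -0.32 to 0.13 (Itsn1), -0.0011 to 0.11 (Picalm) and -0.14 to 0.024 (Snap91). Rat 6, at 74008 counts, limits what its values can show. No paired analysis was possible because the rats of the groups share no replicate numbers.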

Other observations

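Among genes that no comparison above names by sheet, the subunits of the clathrin coat moved apart between the sheets. Both light chains, Clta and Cltb, were lower on the first sheet, with log2 fold changes of -1.15 ± 0.16 and -0.97 ± 0.08 in edgeR with treatment in the model, while the heavy chain Cltc was higher, at 0.53 ± 0.11. Of the AP-2 adaptor, Ap2a1 (0.52 ± 0.14), Ap2a2 (0.48 ± 0.11), Ap2b1 (0.73 ± 0.11) and Ap2s1 (0.84 ± 0.14) were higher on the first sheet, and Ap2m1 was at 0.00 ± 0.10. The genes were singled out after their values were seen. In all, 35 of the 53 pathway genes passed an adjusted p of 0.05 between sheets in edgeR (14 higher and 21 lower on the first), beside 66.1% of all genes. The exons counted measure 1124 bases for Clta, 982 for Cltb, 6069 for Cltc and 772 for Ap2s1; the part of exon length in these differences was not tested.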
